A study of Homo sapiens with 4 samples.

Results

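The expression of 9 antiviral restriction factor genes was examined in MV4-11 cells upon CEBPG knockdown: BST2 (tetherin), the dynamin-like GTPases MX1 and MX2, the membrane proteins IFITM1, IFITM2 and IFITM3, the dNTP hydrolase SAMHD1, the exonuclease ISG20 and the XIAP-associated factor XAF1. They were taken from the deposited table by gene symbol, and are 9 of its 16490 genes and 13 of its 28581 RefSeq rows with values. MV4-11 is a human AML cell line, and the 4 libraries were made from cells carrying a control hairpin (sh-NC, 2 libraries) or the hairpin sh-CEBPG#3 against CEBPG (2 libraries). The CEBPG hairpin was delivered in a lentiviral pLKO.1-puro vector and stable cells were selected with puromycin. The vector of the control hairpin is not given in the sources used here, and the knockdown group rests on 1 hairpin. It is not given in the sources used here whether replicates stem from independent infections, so the spread between them may be technical.

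Restriction factors are host proteins that block steps of the viral life cycle, and many of their genes are transcribed at a low level until interferon reaches the cell. The receptors of type I and III interferons act through the kinases JAK1 and TYK2. Transcription factors that include STAT2 and IRF9 then bind the interferon-stimulated response element in target promoters. The 9 products act at different places. IFITM proteins impede the fusion of viral and cellular membranes, MX proteins and SAMHD1 act after entry, ISG20 degrades RNA, and BST2 holds budding virions at the cell surface. XAF1 is better known as a proapoptotic protein that opposes XIAP.

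The promoters of the genes are shown first, since the response element is the sequence by which such genes are usually grouped. RefSeq promoters (GRCh38.p14, from 250 bases before to 50 after each start) were at hand for 7 of the 9 genes, and those of MX2 and IFITM2 were not analysed here. The core of the element, taken as GAAA, then 2 bases of any kind, then GAAA again, was searched on both strands and was found in the promoters of 5 of these 7 genes, against 3.57% of all 35116 promoters. The units are unlike, since a gene with several starts, as MX1, counts if any of its windows matches. The shares over all promoters, here and below, count each window by itself. The stretches of 30 bases that hold it are given 5′ to 3′ on the strand of the gene, with the matching letters in capitals.
BST2, chr19:17405738-17405767, minus strand: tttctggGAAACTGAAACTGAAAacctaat
IFITM1, chr11:313990-314019, plus strand: caaacagcagGAAATAGAAActtaagagaa
IFITM1, chr11:314024-314053, plus strand: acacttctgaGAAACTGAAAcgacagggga
IFITM3, chr11:320884-320913, minus strand: gGAAAAGGAAActgttgaGAAACCGAAAct
ISG20, chr15:88638937-88638966, plus strand: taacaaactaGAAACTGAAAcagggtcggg
MX1 start 1, chr21:41420559-41420588, plus strand: gagcagaaatGAAACCGAAActgaattgtc
MX1 start 3, chr21:41431844-41431873, plus strand: ggtcactctgTTTCTCTTTCcgtgaataaa

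In BST2 the 2 matches overlap and begin at -130 and -124 from the start. IFITM1 and IFITM3 each hold 2 matches close to the start, in IFITM1 from -40 and -6 and in IFITM3 from -52 and -35. The match of ISG20 begins at -69. Of the 3 RefSeq starts of MX1, start 1 has its match inside the transcribed part, from base 12, and start 3 has a match on the other strand from -196. No match was found in the windows of SAMHD1 and of both starts of XAF1. The gamma-activated site core TTCNNNGAA, found in 7.66% of all promoters, was present in BST2, IFITM1 and MX1, and its matches at -136 in BST2, -12 in IFITM1 and -189 in MX1 share bases with a match to the response element core. The C/EBP core TTGCNNAA (10.5% of all promoters) and the C/EBP-ATF core TGATGCAA (0.866%) had no match in the windows of the 7 genes. A match describes letters in a window and is not a binding site.

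**Figure D1:**
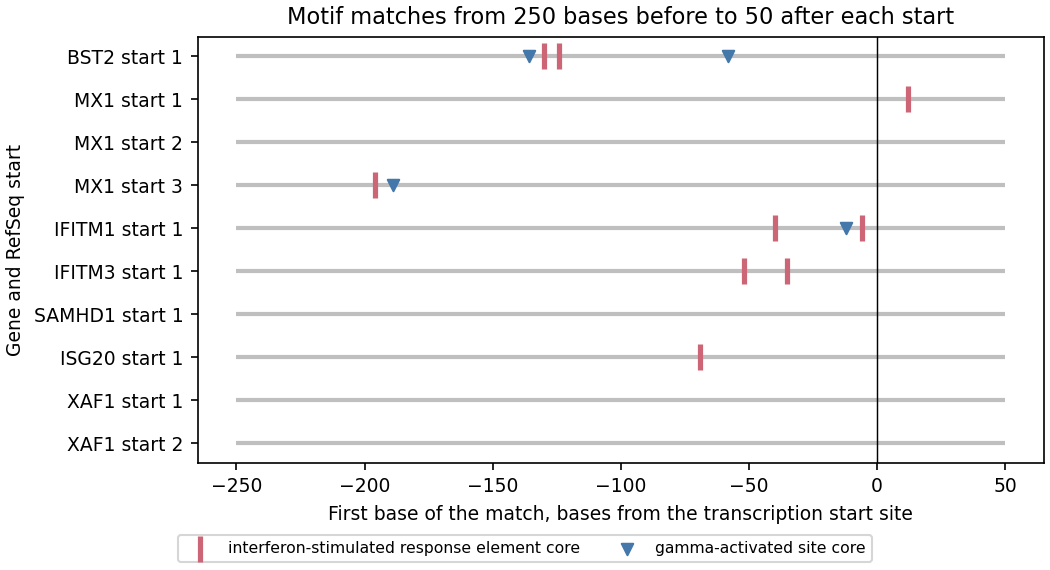
Matches to the interferon-stimulated response element core (bars) and the gamma-activated site core (triangles) in the RefSeq promoters of 7 restriction factor genes; the x axis gives the first base of each match from the start site. IFITM1, IFITM3 and ISG20 hold bars within 69 bases before the start, BST2 holds 2 further upstream, and SAMHD1 and XAF1 hold none.

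The values are FPKM, fragment counts scaled to transcript length and to the mapped fragments of the library, summed over the RefSeq rows of a gene. They allow levels to be compared between genes because they are scaled to length. The total over all genes was between 364353 and 389766 FPKM, and the read depth is unknown. CEBPG itself was at 30.4 and 33.6 FPKM with sh-NC and at 19.2 and 17.1 FPKM with sh-CEBPG#3, a log2 fold change of -0.78 (standard error 0.09, adjusted p = 8.88e-05 by limma with Benjamini-Hochberg adjustment). The libraries carried the myeloid markers CD33 (26.8 to 37.2 FPKM), SPI1 (114 to 157 FPKM) and FLT3 (62.8 to 75.0 FPKM). Of the 10 myeloid markers, 5 rose and 3 fell at an adjusted p under 0.05 in limma, against 18.5% and 23.8% of all genes tested. By log2 fold change, LYZ (2.37), CSF1R (0.80), CD4 (0.40), CD33 (0.37) and SPI1 (0.33) rose. MEIS1 (-0.87), HOXA9 (-0.36) and HOXA10 (-0.22) fell, while FLT3 and PTPRC did not pass. The summed level of the 10 markers went from 922 to 1001 FPKM in sh-NC to 3383 to 3559 FPKM in sh-CEBPG#3 libraries, mostly through LYZ. LYZ, the lysozyme of monocytes, had 567 and 610 against 3126 and 2982 FPKM. The 3 markers of plasmacytoid dendritic cells that were analysed, a cell type known for BST2, summed to 15.2 to 16.8 and 17.7 to 20.8 FPKM, mostly through IL3RA, and the defining marker LILRA4 was at most 0.0664 FPKM in any library. B cell markers summed to at most 1.52 FPKM, of which CD79B was at 0 in 1 library of each group. The epithelial keratin KRT8 rose from 2.29 and 2.35 to 6.26 and 6.19 FPKM, KRT18 ranged from 8.57 to 10.6 FPKM, and the fibroblast gene COL1A1 was at most 0.0781 FPKM. Markers of T cells and erythroid cells were not analysed here. The part of these shifts in the results for the restriction factors was not tested, and in bulk RNA a change in the share of cells cannot be told apart from a change in RNA per cell.

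The restriction factor genes were chosen with this contrast in view, so their values are given as a description and no p-value is given for any of them. The counts that follow restate that choice and are set beside the shares over all genes for scale. In sh-CEBPG#3 cells, 7 of the 9 genes were above the control in both libraries, whereas IFITM2 and the listed row of MX1 overlapped between the groups. Over all 12142 genes tested, 31.5% were above and 40.2% below the control in both libraries, while none of the 9 was below it in both. Of the 8 genes that passed the filter of a mean of at least 0.5 FPKM, 7 were higher at an adjusted p under 0.05 in limma, against 18.5% of all genes tested. With a log2 fold change above 1 in addition the count was 5, against 2.33% of all genes, and no gene of the 9 was called below -1, against 1.04%. Leaving out sh-NC replicate 1 or sh-CEBPG#3 replicate 1 gave 4 genes with a log2 fold change above 1, and leaving out sh-NC replicate 2 or sh-CEBPG#3 replicate 2 gave 7. The filter favours genes that are high in either group. MX2 and ISG20 passed it only through sh-CEBPG#3, with means of 9.04 and 1.88 FPKM against 0.430 and 0.462 FPKM with sh-NC. Their place among the higher genes was thus partly fixed by the filter. As the genes were also chosen on this contrast, nothing is read from these counts. The median log2 fold change of the 9 genes, which include the MX1 row that was not fitted, was 1.00. That of the 8 genes that passed the filter was 1.49, and that of all genes tested was -0.04. The 9 genes summed to 187 and 209 FPKM with sh-NC and to 659 and 623 FPKM with sh-CEBPG#3.

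**Figure D2:**
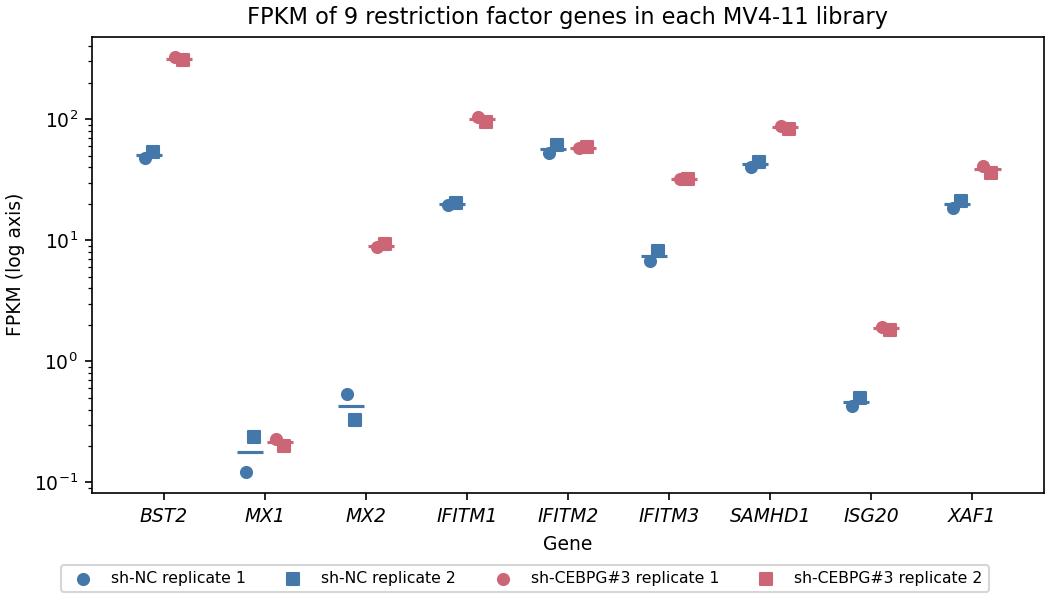
FPKM of the 9 restriction factor genes on a log axis in the 2 sh-NC (blue) and 2 sh-CEBPG#3 (red) libraries, with short lines at the group means. The groups are apart for 7 genes and overlap for IFITM2, at 52.5 to 60.9 FPKM, and for the listed row of MX1, at 0.122 to 0.235 FPKM.

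BST2 encodes tetherin, a protein anchored in the membrane at both ends that ties budding virions to the cell. Its gene lies on chromosome 19 from 17402939 to 17405630 (RefSeq, GRCh38.p14, as for all genes below) and is listed by 1 RefSeq row, NM_004335. BST2 was at 47.5 and 53.3 FPKM with sh-NC and at 324 and 306 FPKM with sh-CEBPG#3. Both knockdown libraries were thus far above both controls, and the libraries of a group were close to each other. The means were 50.4 ± 4.08 and 315 ± 12.8 FPKM (SD, n = 2 each), a ratio of 6.25, with library-to-library ratios from 5.74 to 6.82. The log2 fold change was 2.62 (standard error 0.08), at percentile 99.82 of the genes tested. Tetherin was the most abundant of the 9 in sh-CEBPG#3 cells, while in sh-NC cells it overlapped with IFITM2 at the top.

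The MX proteins are large GTPases related to dynamin. MxA, from MX1, acts on many RNA viruses, and MxB, from MX2, is known for acting on HIV-1. Both genes lie on chromosome 21, with MX2 from 41362027 to 41409393 and MX1 from 41420558 to 41459214, separated by 11164 bases. MX2 was at 0.536 and 0.325 FPKM with sh-NC and at 8.82 and 9.27 FPKM with sh-CEBPG#3. It was barely present in the controls, and both knockdown libraries were far above them. The means were 0.430 ± 0.149 and 9.04 ± 0.318 FPKM (SD, n = 2 each), a ratio of 21.0, the largest of the 9 genes. This ratio rests on low control values, and library-to-library ratios ran from 16.5 to 28.5. The log2 fold change of 2.82 (standard error 0.11) is on the log2(FPKM + 1) scale, which understates low genes, and it was 4.14 with a pseudocount of 0.1 FPKM and 4.40 with 0.01 FPKM.

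MX1 was listed by the row NM_001144925 only, which is 1 of the 9 NM or NR accessions that RefSeq now has for the gene. This row was at 0.122 and 0.235 FPKM with sh-NC and at 0.2296 and 0.2004 FPKM with sh-CEBPG#3. The groups overlapped, all 4 values were below the filter, and the row did not enter the fit. The difference of the log2(FPKM + 1) means was 0.05. Other MX1 transcripts were not analysed here, so these values describe the listed transcript and not the output of the gene. Of the MX1 transcripts, exons also share 562 bases with TMPRSS2 on the opposite strand.

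IFITM proteins sit in the plasma membrane (IFITM1) or in endosomes and lysosomes (IFITM2 and IFITM3), where they hinder the entry of enveloped viruses. The genes are neighbours on chromosome 11, with IFITM2 from 307816 to 309395, IFITM1 from 314040 to 315272 and IFITM3 from 319676 to 320860, at gaps of 4644 and 4403 bases. IFITM1 was at 19.7 and 20.5 FPKM with sh-NC and at 105 and 95.5 FPKM with sh-CEBPG#3. Its groups were well apart, with means of 20.1 ± 0.557 and 100.01 ± 6.45 FPKM (SD, n = 2 each), a ratio of 4.98. IFITM3 was at 6.72 and 8.12 FPKM with sh-NC and at 32.2 and 32.3 FPKM with sh-CEBPG#3. It was the least abundant of the 3 genes in every library, and its groups were also apart, with means of 7.42 ± 0.986 and 32.3 ± 0.0945 FPKM (SD, n = 2 each), a ratio of 4.35. The log2 fold changes were 2.26 (standard error 0.08) for IFITM1 and 1.99 (standard error 0.09) for IFITM3.

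IFITM2, which lies beside these genes, behaved otherwise. It was at 52.5 and 60.9 FPKM with sh-NC and at 57.8 and 58.5 FPKM with sh-CEBPG#3. Both knockdown values lay between the control values. The means were 56.7 ± 5.996 and 58.1 ± 0.520 FPKM (SD, n = 2 each), with a log2 fold change of 0.04 (standard error 0.08), which ranged from -0.07 to 0.15 when each library was left out in turn. The difference between IFITM2 and its neighbours was not tested, as the genes were chosen on this contrast.

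The makeup of the IFITM transcripts shifted accordingly. IFITM2 held 66.5% and 68.1% of the summed IFITM1, IFITM2 and IFITM3 FPKM with sh-NC and 29.7% and 31.4% with sh-CEBPG#3. IFITM1 went from 24.97% and 22.9% to 53.8% and 51.2%, and so became the leading transcript of the 3. IFITM3 went from 8.52% and 9.06% to 16.6% and 17.4%. The ratio of IFITM1 to IFITM3 was 2.93 and 2.52 with sh-NC and 3.25 and 2.95 with sh-CEBPG#3, which leaves the groups just apart. The ratio of IFITM2 to IFITM3 was 7.80 and 7.51 with sh-NC and 1.79 and 1.81 with sh-CEBPG#3, a far wider gap. These values carry an uncertainty from sequence identity. In the canonical GENCODE transcripts, 55.1% of the 50-base words of IFITM1, 12.0% of those of IFITM2 and 20.8% of those of IFITM3 also occur in transcripts of other genes. For IFITM1 most of this is shared with ENSG00000288681, which overlaps IFITM1 and IFITM2 on the same strand, while 15.8% is shared with IFITM3 and 8.08% with IFITM2. How the authors' counting divided such reads is not given in the sources used here. Exons on the opposite strand also overlap IFITM3 by 405 bases (ENSG00000255328) and IFITM1 by 176 bases (ENSG00000254910), and strand use in counting is not stated. The share of words found elsewhere was at most 0.697% for each of the 6 other genes.

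**Figure D3:**
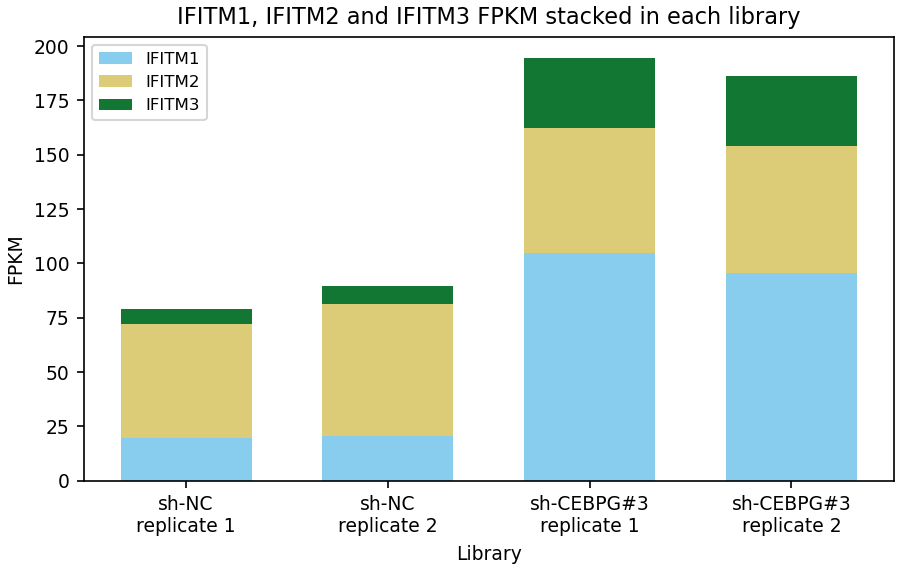
Stacked FPKM of IFITM1, IFITM2 and IFITM3 in each of the 4 libraries. The IFITM2 block is of like height throughout, while the IFITM1 and IFITM3 blocks are taller in sh-CEBPG#3 cells and the total goes from 78.9 and 89.5 FPKM to 195 and 186 FPKM.

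SAMHD1 cleaves dNTPs and thereby limits reverse transcription in myeloid cells, and it is inactivated as a restriction factor when phosphorylated by CDK1 or CDK2 with cyclin A. The gene lies on chromosome 20 from 36889773 to 36951708. SAMHD1 was at 40.7 and 44.2 FPKM with sh-NC and at 88.5 and 83.3 FPKM with sh-CEBPG#3. It was already well expressed in control cells and was higher in both knockdown libraries, with means of 42.4 ± 2.497 and 85.9 ± 3.70 FPKM (SD, n = 2 each), a ratio of 2.02. The log2 fold change of 1.00 (standard error 0.08) lay just above the limit of 1, and it ranged from 0.94 to 1.06 when each library was left out. The level of SAMHD1 was close to that of BST2 in control cells and well below it upon knockdown, since its ratio to BST2 was 0.856 and 0.830 in sh-NC libraries and 0.273 and 0.272 in sh-CEBPG#3 libraries. The exons of SAMHD1 share 1068 bases with TLDC2 on the opposite strand, which was itself at 0.770 and 1.07 against 2.34 and 1.84 FPKM.

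ISG20 is an exonuclease that degrades single-stranded RNA, with its gene on chromosome 15 from 88635632 to 88656483. Summed over 2 rows, it was at 0.428 and 0.495 FPKM with sh-NC and at 1.93 and 1.82 FPKM with sh-CEBPG#3. The groups were apart but all 4 values were low. The means were 0.462 ± 0.0473 and 1.88 ± 0.0770 FPKM (SD, n = 2 each), a ratio of 4.06, whereas the log2 fold change on the log2(FPKM + 1) scale was 0.98 (standard error 0.13), and 1.82 and 2.00 with pseudocounts of 0.1 and 0.01 FPKM. By the ratio it stood beside IFITM3 and by the log2 value beside SAMHD1, as the pseudocount of 1 FPKM is above its control level. The row NM_002201 held 96.5% of its FPKM in sh-NC and 93.7% in sh-CEBPG#3 cells.

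XAF1 lies on chromosome 17 from 6755447 to 6775647 and is listed by 3 rows. It was at 18.4 and 21.3 FPKM with sh-NC and at 40.9 and 36.2 FPKM with sh-CEBPG#3. Both knockdown libraries were above both controls, with means of 19.8 ± 2.05 and 38.6 ± 3.32 FPKM (SD, n = 2 each), a ratio of 1.94 and a log2 fold change of 0.93 (standard error 0.09). The difference lay in the row NM_017523, which had 17.5 and 19.0 against 39.8 and 33.8 FPKM. The row NM_199139 had 0.891 and 1.06 against 1.01 and 1.01 FPKM, and the non-coding row NR_046398, with values from 0 to 1.38 FPKM, differed as much within a group as between groups. XAF1 exons share 2535 bases with the antisense gene PRAL, which was not analysed here, and without strand the reads of such a pair cannot be told apart.

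**Figure D4:**
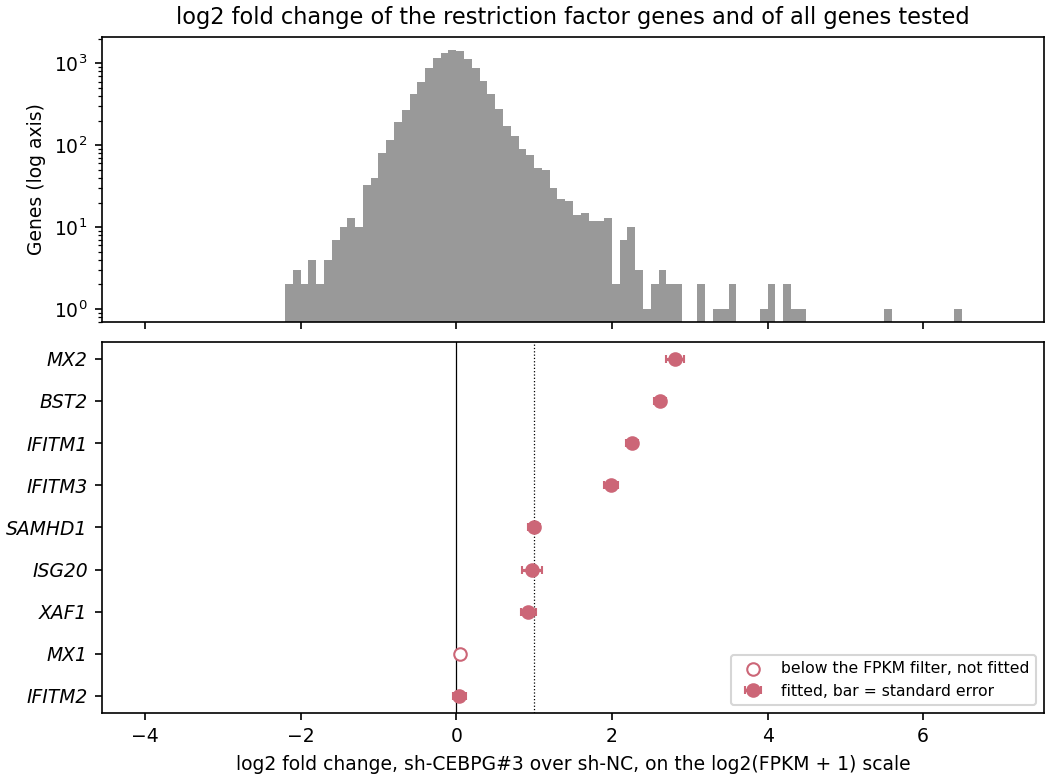
Log2 fold changes of all 12142 genes tested (top, gene counts on a log axis) and of the 9 restriction factor genes (bottom, bars are limma standard errors), on the log2(FPKM + 1) scale. MX2, BST2, IFITM1 and IFITM3 lie from 1.99 to 2.82, SAMHD1, ISG20 and XAF1 from 0.93 to 1.00 beside the dotted line at 1, and IFITM2 and the MX1 row at 0.04 and 0.05.

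The order of levels changed between the groups. In sh-NC cells it was IFITM2, BST2, SAMHD1, IFITM1, XAF1, IFITM3, ISG20, MX2 and the MX1 row, where the neighbours IFITM2 and BST2, IFITM1 and XAF1, and ISG20 and MX2 overlapped between libraries. In sh-CEBPG#3 cells it was BST2, IFITM1, SAMHD1, IFITM2, XAF1, IFITM3, MX2, ISG20 and the MX1 row, and no neighbours overlapped. As each group has 2 libraries, an order without overlap describes these libraries.

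The genes with the most similar profiles were taken by Euclidean distance over the 4 libraries, after the sh-NC mean of log2(FPKM + 1) had been subtracted from each gene. With 2 groups of 2, this mainly ranks genes by the size of the difference. For BST2 they were C3, SLFN5 and IRF9 (distances 0.0426 to 0.0922). For IFITM1 they included H2BC12 and CMPK2 (0.0540 and 0.122), and for IFITM3 they were FTH1, CHI3L1 and NCF1 (0.103 to 0.145). MX2 had no close neighbour, and IFI27, FCER2 and IRF9 were at 0.172 to 0.316, with IFI27 listed at 0 in both sh-NC libraries. SAMHD1 was nearest to CARD19, LTC4S and BST1, ISG20 to TRIM22, BST1 and CD70, and XAF1 to FILIP1L, RNASE4 and RIN1, all within 0.0422. IFITM2 and the MX1 row were nearest to genes with differences of 0.03 to 0.05, among them TMEM156 and CMTR2.

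Other restriction factors were then examined from a list of 40 genes outside these 9. Of the 35 tested, 17 rose, 3 fell and 15 did not pass an adjusted p of 0.05 in limma, where 18.5% of all genes tested rose and 23.8% fell. The median log2 fold change of the list was 0.20. Among the 17, APOBEC3H passed the FPKM filter only through sh-CEBPG#3, with means of 0.326 FPKM with sh-NC and 0.786 FPKM with sh-CEBPG#3. Its call was thus partly fixed by the filter. The largest increase was that of SLFN5, a Schlafen family member, with 0.507 and 0.590 against 8.85 and 7.86 FPKM and a log2 fold change of 2.59 (standard error 0.11, adjusted p = 1.33e-07 in limma). SHFL, which blocks ribosomal frameshifting (1.97), EIF2AK2, the RNA-activated kinase PKR (1.80), GBP5 (1.78), the DNA sensor IFI16 (1.70) and LY6E (1.67) followed, with adjusted p-values no higher than 9.96e-07 in limma. LY6E was the most abundant of these, at 49.6 and 53.0 FPKM with sh-NC and at 169 and 162 FPKM with sh-CEBPG#3. The 3 genes that fell, named after their values were seen, were the cytidine deaminase APOBEC3B (-1.11, adjusted p = 4.56e-05 in limma) and the chromatin silencing factors MPHOSPH8 (-0.62, adjusted p = 0.000343) and MORC2 (-0.41, adjusted p = 0.00417). APOBEC3B was at 4.78 and 5.79 FPKM with sh-NC and at 1.89 and 1.89 FPKM with sh-CEBPG#3. MORC2 did not pass 0.05 when its most abundant RefSeq row was tested by itself (adjusted p = 0.259 in limma). TRIM28, the most abundant of the list in control cells with 142 and 151 FPKM, had 140 and 135 FPKM upon knockdown (adjusted p = 0.338).

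The interferon receptors and signal transducers formed a list of 17 genes. Of the 16 tested, 9 rose, 1 fell and 6 did not pass, with a median of 0.31, where 18.5% of all genes tested rose and 23.8% fell. IRF9 was at 3.99 and 4.13 FPKM with sh-NC and at 31.4 and 29.9 FPKM with sh-CEBPG#3, a log2 fold change of 2.64 (standard error 0.08, adjusted p = 1.65e-08 in limma). STAT2 had 12.1 and 11.9 against 36.8 and 35.3 FPKM (1.51, adjusted p = 4.61e-07). USP18, a protease that removes ISG15 and dampens receptor signalling (2.19), IRF7 (1.67) and IFNGR2 (0.72) rose as well. SOCS1, a feedback inhibitor of JAK kinases, was the gene that fell, named after its value was seen (-0.42, adjusted p = 0.00190 in limma). The receptor chains IL10RB (0.36) and IFNAR2 (0.28) and the kinase JAK2 (0.34), named after their values were seen, rose by less. In the alternatives with all 4 libraries, 7 to 9 genes of the list rose. The receptor chain IFNAR1 (0.05) and the kinases JAK1 (-0.07) and TYK2 (0.00) did not pass. Of 21 interferon ligand genes IFNB1 was analysed, with 0 to 0.188 FPKM over the 4 libraries and overlapping groups, and the other 20 were not analysed here.

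**Figure D5:**
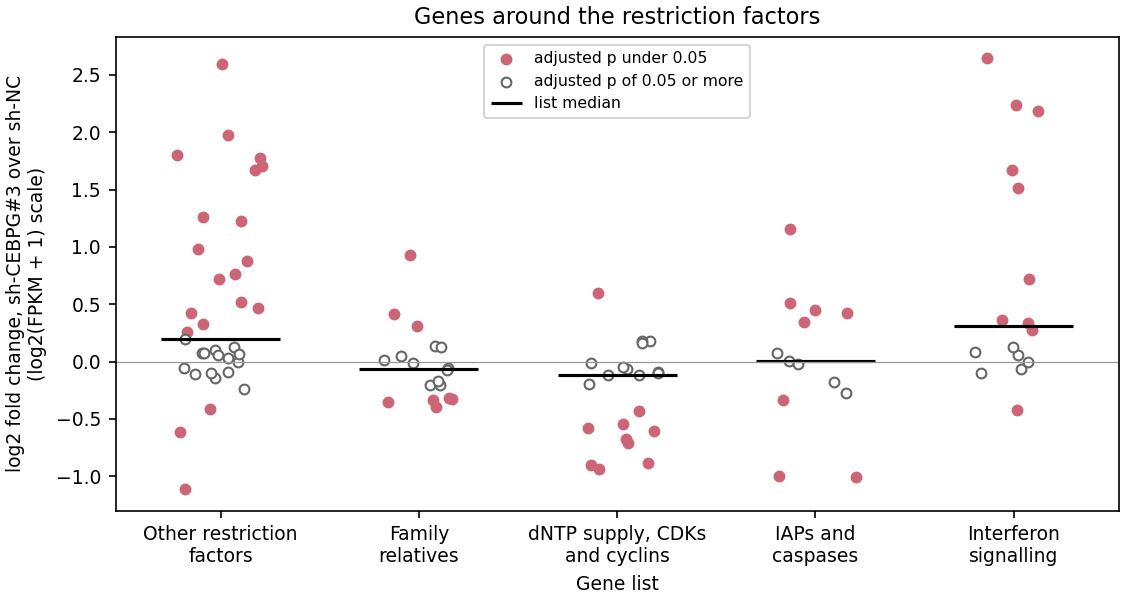
Log2 fold changes on the log2(FPKM + 1) scale of the tested genes of 5 lists; filled points have an adjusted p under 0.05 in limma, open points do not, and black lines are list medians. Genes above 1.5 appear in the lists of other restriction factors and interferon signalling. The list of dNTP supply genes, CDKs, cyclins and phosphatase genes has 9 filled points below 0 and 1 above, and CDK1, CDK2, CCNA2 and CCNB1 are among the 9.

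Genes related by family to some of the 9 were examined as 1 list of 27 genes. They included the dynamins and mitofusins related to the MX GTPases, dispanin relatives of the IFITM genes and exonucleases related to ISG20. Of the 18 tested, 3 rose, 5 fell and 10 did not pass, and the median was -0.06. TMEM91 was the only dispanin tested (-0.07, adjusted p = 0.749 in limma), so the list cannot speak for the IFITM family. Over all genes tested 18.5% rose and 23.8% fell. The counts are near these shares, so no change of the list as a whole is read from them, and single families were not tested. The exonuclease TREX1, which clears cytosolic DNA, had the largest change (0.93, standard error 0.11, adjusted p = 0.0001 in limma), with 5.36 and 6.73 against 11.99 and 12.7 FPKM. It did not pass when its most abundant RefSeq row was tested by itself (0.70, adjusted p = 0.0633). MFN1 (0.42), HDDC3 (-0.40), HDDC2 (-0.35), ATL2 (-0.33) and REXO4 (-0.33) passed with smaller values, and of these 5 only HDDC2 passed in every alternative run. The other calls, named after their values were seen, were TRAFD1 (0.31) and REXO2 (-0.315). REXO2 did not pass with its most abundant row, with no filter on low values or without sh-CEBPG#3 replicate 2. TRAFD1 did not pass without sh-CEBPG#3 replicate 1. DNM2, the most abundant relative, had 51.1 and 58.1 against 56.1 and 56.4 FPKM (0.05, adjusted p = 0.679). Leaving out sh-CEBPG#3 replicate 1 gave 1 gene that rose, and leaving out sh-CEBPG#3 replicate 2 gave 1 that fell.

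The enzymes that make and turn over dNTPs, the substrate of SAMHD1, and their precursors were examined next, together with kinases, cyclins and the phosphatase genes PPP2R2A and PPP2CA around its phosphorylation. Of 21 genes tested, 1 rose, 9 fell and 11 did not pass, with a median of -0.11, where 18.5% of all genes tested rose and 23.8% fell. RRM1, the large subunit of ribonucleotide reductase, was at 27.6 and 31.4 FPKM with sh-NC and at 14.7 and 15.1 FPKM with sh-CEBPG#3 (-0.93, standard error 0.09, adjusted p = 2.29e-05 in limma). Thymidine kinase TK1 had 30.6 and 30.4 against 15.6 and 16.1 FPKM (-0.90, adjusted p = 1.25e-05). CCNA2 (-0.71), CCNB1 (-0.68) and DUT (-0.61) fell by less. CDK1 summed over its rows fell (-0.88, adjusted p = 1.21e-05 in limma), but its most abundant row gave 0.05 (adjusted p = 0.901), as the row NM_033379 was at 12.7 and 26.4 FPKM with sh-NC and was listed at 0 in both sh-CEBPG#3 libraries. The gene that rose, named after its value was seen, was RRM2B, an alternative small subunit of the same enzyme (0.60, adjusted p = 0.000316 in limma), and its most abundant row gave 1.08 (adjusted p = 0.0138). RRM2, the subunit used in dividing cells, had 24.1 and 25.3 against 28.8 and 27.2 FPKM and did not pass (adjusted p = 0.0914). CCND3, the most abundant of the list, had 119 and 133 against 122 and 113 FPKM (adjusted p = 0.347).

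XIAP, the inhibitor of apoptosis that XAF1 opposes, was at 3.50 and 3.14 FPKM with sh-NC and at 3.87 and 3.26 FPKM with sh-CEBPG#3, with overlapping groups (0.08, adjusted p = 0.613 in limma). XAF1 was thus more abundant than XIAP in every library. Of 13 tested genes of the inhibitor of apoptosis family, its antagonists and caspases, 5 rose, 3 fell and 5 did not pass, with a median of 0.01. The shares over all genes tested were 18.5% higher and 23.8% lower. DIABLO, a mitochondrial antagonist of these inhibitors, had 20.01 and 20.8 against 10.02 and 9.30 FPKM (-1.01, standard error 0.08, adjusted p = 1.12e-05 in limma). BIRC5, survivin, had 24.6 and 24.7 against 11.8 and 11.9 FPKM (-0.996, adjusted p = 7.75e-06). CASP8 (0.45, adjusted p = 0.00302) and NAIP (0.42, adjusted p = 0.0118) rose. Neither passed in limma when the most abundant row was tested by itself, with adjusted p of 0.453 and 0.128. NAIP also missed 0.05 with no filter on low values (adjusted p = 0.0529 in limma). BIRC2 (0.34), named after its value was seen, also rose. With the most abundant rows BIRC7 was the 1 gene of the list that rose, so BIRC2 did not pass there either. BIRC7 was listed at 0 in both sh-NC libraries and reached 1.39 and 1.08 FPKM with sh-CEBPG#3. It passed the filter only through sh-CEBPG#3 and could only be called higher, so nothing is read from its call. With a filter of a mean of at least 1 FPKM it was not tested, and 4 genes of the list rose.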

How the data were processed

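RNA-seq was measured in 4 MV4-11 libraries, 2 with sh-NC and 2 with sh-CEBPG#3, grouped by sample title. Reads were filtered and aligned by the authors (HISAT2 2.0.5 and hg38 in the submitters' processing notes), who deposited FPKM values per RefSeq transcript; the program that computed FPKM and the annotation release are not given in the sources used here. The table holds no counts and whole reads could not be recovered from low values (the most common ratio between replicates, within 0.2%, held at most 0.626% of rows under 0.06 FPKM), so a count test, a depth and a floor are not given. Of 28780 rows, 199 had no value, and the rest were summed by symbol to 16490 genes. Genes averaging 0.5 FPKM or more over the libraries (12142) were tested on log2(FPKM + 1) with limma 3.58.1 in R 4.3.3 (lmFit, eBayes with a trend, no block), with Benjamini-Hochberg adjustment over all of them. Genes were called at an adjusted p under 0.05. The smallest p of an exact permutation test (two-sided) is 0.333 with 2 against 2, and the p-values therefore rest on limma's variance model. On simulated data of 12142 genes, 95.5% of 200 genes changed by 1.5 on the log2 scale were called, with 12 unchanged genes called. The noise was drawn independently from the spread between replicates, and only these 200 genes were changed. The error rate of the calls in the data cannot be read from this.

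The 9 genes and the gene lists around them were chosen with earlier results of these data known. Named from each list were up to 6 genes with the largest change past the threshold, the most abundant in sh-NC, and, after their values were seen, genes in groups of 5 or fewer or that bear on a member's role. Some genes counted in the lists are not reported here by name. Promoters come from RefSeq (GRCh38.p14), shared 50-base words and exon overlaps from GENCODE v44 on hg38, both read with Python 3.11.15. Alternatives were other pseudocounts, filters and scalings, the most abundant row in place of the sum, the replicate block and each library left out.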

Additional observations from a re-analysis of the deposited data

How the results depend on the processing

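The 9 restriction factor genes were chosen on this contrast, so their values under the 12 alternatives describe the scale and are no test. Of them, 7 had a log2 fold change above 0.5 in each alternative, and 4 to 7 had one above 1. The median over the 9 genes was 1.82 and 2.00, against 1.00, for pseudocounts of 0.1 and 0.01 FPKM, which give more weight to low values. With these pseudocounts the genes called with a log2 fold change above 1 numbered 469 and 477 against 283, and those below -1 numbered 310 and 342 against 126. Testing the most abundant row gave 1329 higher and 1535 lower genes against 2244 and 2884, and left 1 family relative that rose, 1 that fell and 1 apoptosis gene that rose. With equal totals 5 other restriction factors and 8 family relatives fell and 3 genes of the dNTP list rose, the last also with quantile normalization, and with no filter 3 family relatives fell. Leaving out single libraries also moved the counts of family relatives that rose or fell and of rises in the list of dNTP genes, kinases, cyclins and phosphatase genes. The lone library of a group is then assumed to vary like the others. Among genes low in sh-NC, SLFN5 reached 3.91 and IRF7 2.56 with a pseudocount of 0.01 FPKM. CDK1 reversed to 0.0539 with its most abundant row. Where no reason is given, the cause was not tested. CEBPG stayed between -0.87 and -0.70 over these alternatives. In the alternatives with all 4 libraries its adjusted p in limma was at most 0.00789, reached with no filter on low values.

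The deviations of same-numbered libraries had a correlation of 0.0606 across genes. This low value cannot show whether these libraries share an infection or preparation, as the spread between replicates may be technical. Blocking on the replicate number, 289 genes passed with a log2 fold change above 1 and 130 below -1. Without counts, the low values of MX2, ISG20 and the MX1 row cannot be weighted by depth.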
